A study of Mus musculus with 8 samples.

Results

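Distal chromatin peaks open in both mTEC-I and mTEC-II, and at most 50% as open in mTEC-III and mTEC-IV, were examined in sorted mouse medullary thymic epithelial cells (mTEC). There were 113 such peaks of 74090 merged peaks in the series. They were selected on their accessibility from 39199 distal peaks lying more than 1 kb and up to 100 kb from the nearest transcription start site (TSS), without a repeat or CpG island annotation. For that choice each library's tags were scaled to 1000000 over the merged peaks. The lower of the mTEC-I and mTEC-II means had to reach 12, a minimum that 5673 distal peaks met, and the mTEC-III and mTEC-IV means had to stay at or under that lower mean divided by 2. The contrast of mTEC-I and mTEC-II against mTEC-III and mTEC-IV is therefore a description at these peaks and was not tested there.

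The assay was ATAC-seq, where a transposase places sequencing adapters in open DNA, applied to 4 populations from thymus of C57BL/6 mice, with 2 libraries each. All were sorted as CD45- Epcam+ cells. mTEC-I were in addition MHCII low and Itgb4+, mTEC-II were MHCII high, mTEC-III were Ly6D+, and mTEC-IV were MHCII low, Itgb4- and L1cam+. Each label calls its cells enriched for the population, so other mTEC may be present. The labels give neither the age nor the number of animals, and do not say whether both libraries of a population stem from different mice. The p-values therefore reflect variation among libraries, which may be technical.

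As background, mTEC present self antigens to developing T cells. Cells with low MHC class II include both immature and specialised mTEC, and cells with high MHC class II include those that express Aire, the regulator of tissue-restricted antigens. Accessible sites far from a TSS often are enhancers, which act on promoters over a distance, and the nearest gene is not always the gene they act on.

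The sequences of the peaks themselves were not used here. The 250 bases before the TSS are shown for 4 of the nearest genes whose own promoter peak was more open in mTEC-I and mTEC-II, a result given further on, so that the start sites behind that result can be seen. They come from RefSeq (build GRCm38.p6), which held entries for 84 of the 111 nearest genes. The entries lie at chr2:164857709-164857958 on the minus strand for Pltp, chr17:14694263-14694512 on the minus strand for Thbs2, chr10:86300162-86300411 on the plus strand for Timp3 and chr1:189728018-189728267 on the plus strand for Ptpn14. Capitals mark matches to the motifs listed after them.
Pltp: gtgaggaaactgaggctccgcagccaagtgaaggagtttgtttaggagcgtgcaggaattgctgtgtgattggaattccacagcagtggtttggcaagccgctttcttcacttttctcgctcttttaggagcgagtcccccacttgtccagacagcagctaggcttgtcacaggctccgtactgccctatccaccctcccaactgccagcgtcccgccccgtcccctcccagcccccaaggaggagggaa
Thbs2: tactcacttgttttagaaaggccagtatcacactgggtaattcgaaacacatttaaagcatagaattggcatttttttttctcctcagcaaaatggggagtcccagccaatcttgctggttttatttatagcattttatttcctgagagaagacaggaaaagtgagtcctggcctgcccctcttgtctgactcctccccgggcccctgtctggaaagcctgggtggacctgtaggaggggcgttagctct
Timp3: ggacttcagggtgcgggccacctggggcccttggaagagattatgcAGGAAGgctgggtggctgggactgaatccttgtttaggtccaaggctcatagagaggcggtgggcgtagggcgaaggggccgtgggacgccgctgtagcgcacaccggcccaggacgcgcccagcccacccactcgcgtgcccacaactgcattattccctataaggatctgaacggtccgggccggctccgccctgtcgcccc
Ptpn14: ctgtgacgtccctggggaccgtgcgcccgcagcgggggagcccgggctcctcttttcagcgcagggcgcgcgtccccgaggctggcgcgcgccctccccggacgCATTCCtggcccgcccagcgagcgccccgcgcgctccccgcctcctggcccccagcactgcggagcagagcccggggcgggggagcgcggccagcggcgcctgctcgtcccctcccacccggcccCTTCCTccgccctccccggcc

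On both strands, 13 motifs were searched, with overlaps allowed. They were the AP-1 motif TGANTCA, the p63 and IRF motifs by name, the grainyhead-like motif AACNGGTT, the NF-kB motif GGGNNTTCC, the STAT motif TTCNNNGAA, the RUNX motif TGTGGT, the TEAD motif GGAATG, the forkhead motif TGTTTAC, the E-box CAGCTG, the ETS motif AGGAAG, the GATA motif AGATAA and the POU motif ATGCAAAT. A match is a description of letters, not a site. Timp3 held the ETS letters at -204, counted from the TSS. Ptpn14 held the TEAD letters on the other strand at -146 and the ETS letters on the other strand at -21. Among all 32851 RefSeq promoter entries, 29.5% held the ETS letters and 12.6% the TEAD letters in the same 250 bases. The windows of Pltp and Thbs2 held none of the 13.

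The libraries held 3606440 to 10374600 total tags, of which 8.44% to 19.7% lay in merged peaks, with both mTEC-III libraries lowest (8.44% and 11.003%). Levels below are tags per 10000000 total tags after scaling by trimmed mean of M values (TMM), and differences are log2(value + 1). A difference is called where the limma p, adjusted over all peaks, is under 0.05. Marker promoters were checked against the labels, 4 of 5 thymic epithelial ones being tested and Krt5 called higher in mTEC-I and mTEC-II together. Krt5, a keratin of basal epithelium, stood at 41.1 and 48.8 in mTEC-I against 0.724 to 9.22 elsewhere. Aire stood at 61.1 and 49.2 in mTEC-II against 17.2 to 43.8 elsewhere. Krt8 had 68.0 to 77.0 in mTEC-I and mTEC-II against 83.3 to 111.1 in mTEC-III and mTEC-IV. Foxn1 had 10.4 to 22.8 against 2.64 to 17.3. Aire, Krt8 and Foxn1 were not called, and Epcam was not tested. The summed level of this list was 128.5 to 167.0 over the libraries. No promoter peak was found for any of 8 thymocyte or 4 B cell markers. Of 6 mesenchyme markers 4 were tested, Pdgfra, Col1a1, Tagln and Fbn1, and none was called for mTEC-I and mTEC-II against mTEC-III and mTEC-IV; their summed level was 103.9 and 88.4 (mTEC-I), 29.96 and 41.5 (mTEC-II) and 35.6 to 49.2 (the other 4 libraries). Col3a1 and Pdgfrb had no promoter peak. Of 7 myeloid and dendritic markers 3 were tested and Cd68 was lower, with sums of 61.9 and 74.8 (mTEC-I), 103.7 and 95.2 (mTEC-II) and 61.7 to 93.7 (the other libraries), while Csf1r, Itgam, Itgax and Lyz2 had no promoter peak. Of 5 cortical markers 2 were tested (summed level 40.01 to 79.6) and of 5 endothelial markers 1 (9.76 to 31.2), with no call; Prss16, Psmb11, Cdh5, Emcn and Pecam1 had no promoter peak. The part of these cells in the results that follow was not tested.

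Across the 113 peaks, mTEC-I was the most open population and mTEC-IV the least. The median peak stood at 31.4 and 29.3 (mTEC-I), 23.05 and 24.6 (mTEC-II), 8.33 and 10.2 (mTEC-III), with 2.91 and 4.24 (mTEC-IV). The lowest values in mTEC-I were 12.8 and 11.9 and in mTEC-II 11.5 and 12.3, while 6 of the peaks had no read end in mTEC-III replicate 1, 11 had none in mTEC-IV replicate 1 and 6 had none in its replicate 2. By population means, mTEC-I exceeded mTEC-II at 83 of the 113 and mTEC-III exceeded mTEC-IV at 100.

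mTEC-III, not mTEC-IV, set the edge of the group. Of the 5673 distal peaks with enough signal in mTEC-I and mTEC-II, 1469 met the limit for mTEC-IV and 156 the limit for mTEC-III. Within the group, the median mTEC-III level was 40.98% of the lower mTEC-I or mTEC-II mean, and 61 peaks lay between 40% and 50%. The median mTEC-IV level was 14.8% of it, with 73 peaks under 20%. Every mTEC-I and mTEC-II library lay above every mTEC-III and mTEC-IV library at 110 of the 113, the exceptions being peaks of Gm13177, Casp8 and Pgk1, against 5.01% of tested distal peaks; the selection fixed most of this separation. The same arithmetic gave 742 peaks for the pair of mTEC-II and III, 154 for III and IV, 128 for I and III, 48 for I and IV, and 12 for II and IV. The count depended on scaling and on single libraries. With the authors' scaling to total tags and the minimum at the same percentile, 701 peaks qualified, 94 of the 113 among them; without mTEC-II replicate 1 there were 182, and without mTEC-III replicate 2 there were 188. Lower accessibility in every cell and fewer cells with an open site cannot be told apart in such bulk libraries.

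**Figure D1:**
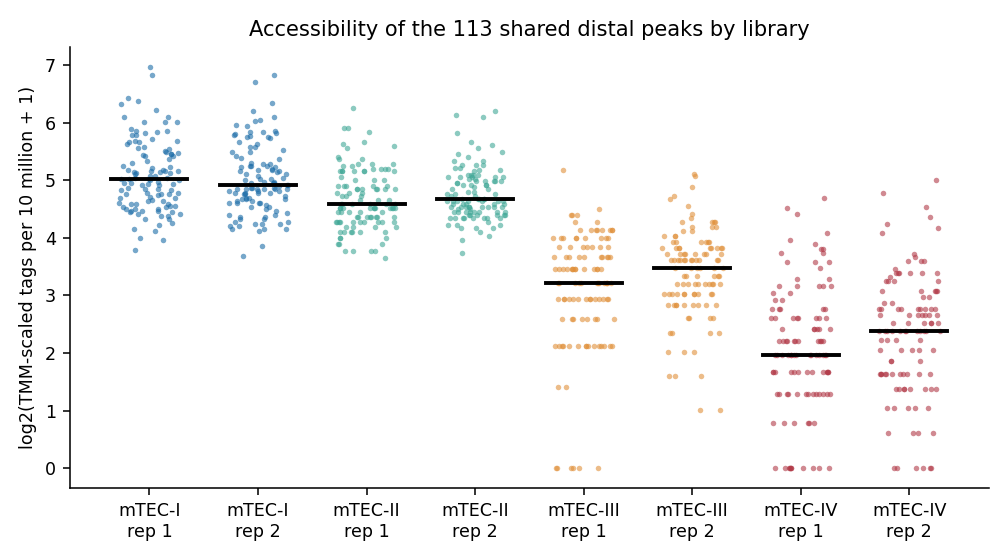
Level of each of the 113 shared distal peaks in every library, on a log2 axis of TMM-scaled tags per 10000000 plus 1. Points are peaks and black bars medians; the medians run from 31.4 in mTEC-I replicate 1 down to 2.91 in mTEC-IV replicate 1, and mTEC-III lies between mTEC-II and mTEC-IV.

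Peaks just inside the minimum belonged to Ptch1 (12.03), Atxn7l1 (12.03) and Pard3 (12.04), and just outside it to Tns3 (11.7), 4933402J15Rik (11.8) and Tmem239 (11.9), on the scale used for the selection. At the mTEC-III limit of 50%, the peaks just inside lay at 49.5% (5430437J10Rik) and 49.9% (Birc2 and 1700007J10Rik). Just outside it were peaks of 1700080N15Rik (50.01%), Hpcal1 (50.04%) and Tnfrsf11a (50.2%), the last encoding the receptor RANK. At the mTEC-IV limit the nearest inside were peaks of Pgk1 (46.7%), Ulk4 (48.2%) and Pth2 (49.1%), and outside Acvr1 (51.0%), Marcks (54.4%) and Etv6 (55.3%). The depth behind these ratios was low, with a median of 20 read ends per peak in mTEC-II replicate 1 and 5 in mTEC-III replicate 1.

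The most open shared peak lay between genes, at mm9 chr1:80424088-80424403, at -18262 bp from the TSS of the predicted gene 1700016L21Rik, which falls outside the naming rule and was picked after its values were seen. It stood at 123.3 and 112.8 (mTEC-I), 74.9 and 73.0 (mTEC-II), 34.99 and 24.4 (mTEC-III), with 8.71 and 6.88 (mTEC-IV). Among genes with a known product, the strongest was in intron 1 of Mob3a (chr10:80158880-80159082), of the MOB family of kinase activators, at 63.7 and 52.0, 58.8 and 69.1, 21.7 and 33.6, and 24.7 and 22.2 in the same order. Here mTEC-I and mTEC-II overlapped, and so did mTEC-III and mTEC-IV.

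Enpp6, which encodes a choline-releasing phosphodiesterase, had a peak at -43322 bp from its TSS (chr8:48028774-48029141) with 84.9 and 54.7 (mTEC-I), 40.3 and 67.6 (mTEC-II), 19.99 and 32.6 (mTEC-III), with 3.63 and 8.46 (mTEC-IV). Kcnq3, a potassium channel subunit, had one in intron 1 (chr15:66024045-66024390) at 78.7 and 80.2, 35.7 and 43.0, 19.99 and 11.2, and 2.18 and 5.29. In both genes mTEC-III was above both mTEC-IV libraries. By contrast, the peak of Sema6a, a transmembrane semaphorin, at -1493 bp from its TSS (chr18:47529925-47530109), did not separate mTEC-III (16.7 and 22.4) from mTEC-IV (13.8 and 26.4), whereas mTEC-I had 42.0 and 52.6, with 56.5 and 31.5 recorded for mTEC-II. At the peak nearest Parvb, an adaptor of integrin-linked kinase, mTEC-III was the lowest population, with 10.0 and 12.2 against 21.8 and 16.9 in mTEC-IV, and 46.9, 37.9, 47.2 and 34.6 in the 4 mTEC-I and mTEC-II libraries. That peak lies in the last intron of the neighbouring gene Samm50 (chr15:84042679-84043055). The other genes named among the 12 most open peaks were Eva1c (intron 1), Myh13, a muscle myosin, and Rhbdl3, a rhomboid protease relative.

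Among the 113, called differences between mTEC-I and mTEC-II were few and all favoured mTEC-I. The peak in intron 2 of Ptch1, the hedgehog receptor (chr13:63649935-63650135), stood at 67.2 and 61.3 in mTEC-I and 16.1 and 19.2 in mTEC-II. Both mTEC-I libraries were thus above both mTEC-II libraries, by 1.81 ± 0.414 on the log2(value + 1) scale (SE, limma adjusted p = 0.00701). Ppp1r3b, a glycogen-targeting subunit of protein phosphatase 1, had 55.7 and 65.1 against 13.8 and 23.05, at -75130 bp from its TSS (1.70 ± 0.456, limma adjusted p = 0.0164). The peak nearest Car9, a carbonic anhydrase, lay at the end of Tpm2 and had 67.2 and 64.5 against 17.3 and 24.6 (1.63 ± 0.396, limma adjusted p = 0.00985). At Rhbdl3 the values were 111.8 and 103.0 against 35.7 and 37.6 (1.52 ± 0.377, limma adjusted p = 0.0108). The fifth call, picked out beyond the naming rule, was the peak nearest Pth2, which lies in an intron of Kash5 (1.36 ± 0.357, limma adjusted p = 0.0143).

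In all, 5 of the 113 (4.42%) were higher in mTEC-I and 0 in mTEC-II at an adjusted p under 0.05 in limma (12 and 0 at an unadjusted p under 0.05; edgeR called 17 and 0, DESeq2 10 and 0). Over all 58817 tested peaks the shares were 9.51% and 9.86%, and over the 5673 distal peaks with the same minimum 4.58% and 5.43%. How the share higher in mTEC-I stood to that of the 5673 moved with the tool, the scaling, the pseudocount, the filter and the depth. It was above with edgeR (15.0% of the 113 against 8.81%), DESeq2 (8.85% against 5.76%) and limma on log2(value + 5) (8.85% against 6.28%). It was also above with the authors' scaling (7.96% against 6.68%) and with scaling to tags in merged peaks (4.42% against 4.23%). The same held without a filter on low values (5.31% against 4.41%) and with replicate number in the fit (6.19% against 4.78%). It was below in the main fit (4.42% against 4.58%) and with libraries thinned to equal depth (0.885% against 1.75%), so no steady excess was seen. The median difference of the 113 was 0.29 log2, against -0.07 over the 5673 and -0.06 over all tested peaks. The selection used these same values. It bounds both populations from below, and its limit on mTEC-III and mTEC-IV hangs on the lower of the 2 means. It does not name which is higher, but how far that limit shaped the lean to mTEC-I was not tested. The differences and adjusted p-values of this pair are therefore given as a description of the selected peaks. Calls were fewer without either library of mTEC-I or mTEC-II and more without either library of mTEC-III, and the share of the 5673 moved the same way. The share of the 113 was below that of the 5673 in the former runs. It was above in the latter and without either library of mTEC-IV.

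**Figure D2:**
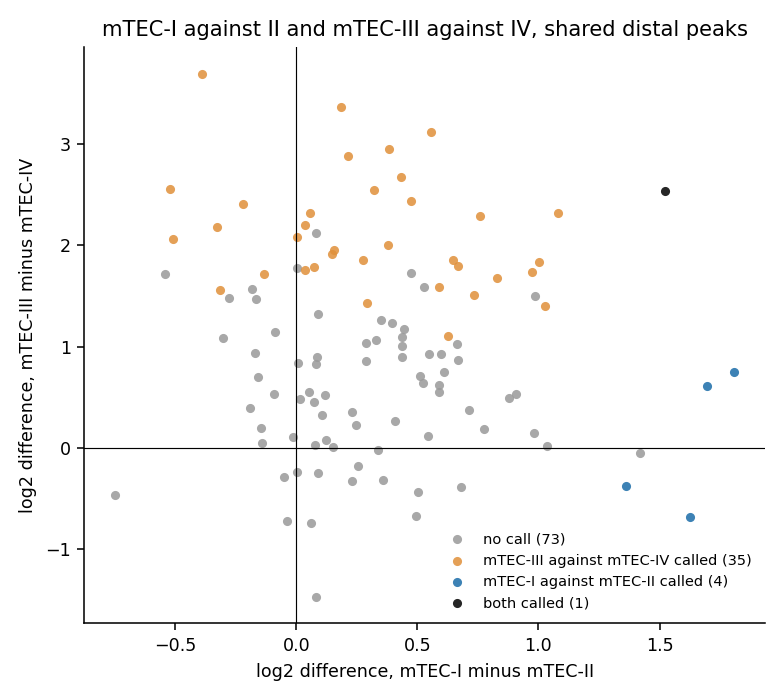
Each point is 1 of the 113 shared distal peaks, with the log2 difference of mTEC-I minus mTEC-II on the x axis and of mTEC-III minus mTEC-IV on the y axis; colours mark limma calls. The 5 calls between mTEC-I and mTEC-II lie to the right, the 36 between mTEC-III and mTEC-IV lie at the top, and Rhbdl3 is in both.

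Between the populations where these peaks were less open, mTEC-III was more often the higher. The selection used the mTEC-III and mTEC-IV values too and capped both at the same bound, so the differences and adjusted p-values of this pair are given as a description of the selected peaks. The peak near the olfactory receptor gene Olfr434 (chr6:43169625-43169869) had 11.7 and 12.2 in mTEC-III and no read end in either mTEC-IV library, so it was at least 6.34-fold higher in mTEC-III, taking 3 read ends per mTEC-IV library as the floor (limma adjusted p = 0.000271). The peak in intron 1 of Trpm3, a cation channel, had 6.67 and 6.11 and again none in mTEC-IV, at least 3.40-fold higher (limma adjusted p = 0.00249). Upstream of Nek2, a kinase of the centrosome, the values were 15.0 and 11.2 against 0 and 1.59, a ratio of 13.8 with a 95% exact counting interval of 4.08 to 72.4 (limma adjusted p = 0.000743). Upstream of Tle3, a Groucho corepressor, they were 6.67 and 19.3 against 0.724 and 0.527, a ratio of 23.8 (5.87 to 208) (limma adjusted p = 0.000922). At these 4 peaks both mTEC-III libraries lay above both mTEC-IV libraries. The counting ratios and their intervals, here and below, come from read ends pooled over the libraries of each side, relative to their scaled depth. They therefore differ from ratios of the levels shown. The intervals and floors cover counting error only.

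Of the 113 peaks, 36 were higher in mTEC-III and 0 in mTEC-IV with limma (51 and 1 at an unadjusted p under 0.05; edgeR called 38 and 0). Over all tested peaks 12.3% were higher in mTEC-III and 11.2% in mTEC-IV, whereas over the 5673 distal peaks with the same minimum it was 26.1% and 3.79%. The share of the 113 was 31.9%, and distal peaks open in mTEC-I and mTEC-II in general thus leaned to mTEC-III as well. The median difference was 0.94 log2, against 0.23 over the 5673 and -0.07 over all tested peaks. Without mTEC-IV replicate 1 the 36 became 15, which is 13.3% against 15.3% of the 5673, and with log2(value + 5) the shares were 25.7% and 26.6%, so in both cases the share of the 113 was the lower one. Without mTEC-III replicate 2, some of the 113 were called higher in mTEC-IV, at a share below that of the 5673. With the authors' scaling 2 (1.77%) were called higher in mTEC-IV, against 18.9% of the 5673.

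The authors' own peak calls were made library by library, and an overlap of at least 1 bp was counted. Peaks of mTEC-I replicates 1 and 2 overlapped 108 and 107 of the 113 (95.6% and 94.7%), against 95.9% and 94.3% of the 5673 distal peaks with the same minimum. For mTEC-II it was 58 and 101 (51.3% and 89.4%) against 64.3% and 87.1%, so the overlaps with mTEC-I and mTEC-II were near or below those of the 5673. Peaks of mTEC-III overlapped 0 and 8 (0% and 7.08%) against 29.98% and 61.4%, and those of mTEC-IV 3 and 9 (2.65% and 7.96%) against 59.9% and 67.5%. In all 4 mTEC-I and mTEC-II lists and none of the others there were 41 (36.3%, against 4.57%). The mTEC-II lists held 19008 and 27739 peaks against 44288 and 39040 for mTEC-I. These calls come from the same reads as the selection and add no independent test.

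Most of the 113 lay in introns or between genes. They were annotated as intronic in 55 cases (48.7%) and intergenic in 49 (43.4%), against 48.02% and 44.8% of all 39199 distal peaks and 40.7% and 50.2% of the 5673. The other 9 comprised 3 in a 3′ UTR, 3 in exons, 2 at transcript ends and 1 in a non-coding transcript. Intron 1 held 22 of the 55. Widths ran from 127 to 377 bp with a median of 208 bp, against 153 bp for all distal peaks and 212 bp for the 5673. The median distance to the TSS was 22910 bp, against 20815 bp and 15351 bp, and 26.5% lay more than 50 kb away, against 19.9% and 14.4%. Chromosomes 9 and 11 held 11 each, or 9.73%, against 5.90% and 7.57% of all distal peaks. No test was made of these shares.

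The 113 peaks had 111 nearest genes, and few genes held more than 1. Timp3, an inhibitor of matrix metalloproteinases, held a pair in its intron 1, 6298 bp apart (chr10:85778276-85778479 and chr10:85784777-85784973). The first had 49.9 and 48.2 (mTEC-I), 25.4 and 32.3 (mTEC-II), 11.7 and 14.3 (mTEC-III), with 0.724 and 3.70 (mTEC-IV); the second had 30.1 and 33.6, 21.9 and 24.6, 6.67 and 7.12, and 6.54 and 1.05. 4930545H06Rik held the other pair. A further pair within 200 kb joined neighbouring genes of death receptor signalling, the inhibitor Cflar (chr1:58779266-58779451) and the protease Casp8 (chr1:58913809-58913969), which was noticed after the positions were seen. At 15 of the 64 peaks inside a transcript or at its end, that transcript belonged to another gene than the nearest one.

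Of 11 gene lists of thymic epithelial pathways, 4 held 1 gene each nearest to a shared peak, and 7 held none: Aire-stage mTEC, antigen presentation, thymic epithelial regulators, basal keratins, integrins and matrix, interferon response, tuft cells and cornified epithelium. Of 213 list genes with any distal peak, 4 had one, against 0.873% of all 12722 such genes (111). Birc2, an inhibitor of apoptosis that takes part in NF-kB signalling, was 1 of 30 in the NF-kB and TNF receptor list. Its peak, at -1260 bp from its TSS (chr9:7838194-7838440), had 29.2 and 28.2 (mTEC-I), 21.9 and 17.7 (mTEC-II), 8.33 and 11.2 (mTEC-III), with 7.99 and 4.24 (mTEC-IV). Fos, a subunit of AP-1, was 1 of 14 in the AP-1 list, with 34.9 and 38.5, 24.2 and 23.8, 3.34 and 18.3, and 2.91 and 8.99 at a peak at 59105 bp from its TSS.

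Lif, a cytokine of the IL-6 family, was 1 of 24 in the cytokine list. Its intergenic peak (chr11:4179723-4179947) had 32.7 and 34.7 (mTEC-I), 27.7 and 20.7 (mTEC-II), 10.0 and 13.2 (mTEC-III), with 0.724 and 2.12 (mTEC-IV), with mTEC-III called above mTEC-IV (2.43 ± 0.487, limma adjusted p = 0.00274). Egfr, the receptor of epidermal growth factor, was 1 of 36 in the list of Notch, Wnt, TGF-beta and growth factor genes. Its intron 1 peak (chr11:16732096-16732311) had 42.4 and 35.8, 16.1 and 21.5, 10.0 and 8.15, and 3.63 and 2.12. Here mTEC-III was also called above mTEC-IV (1.40 ± 0.463, limma adjusted p = 0.0378). The selection used these values, so the calls at Lif and Egfr are a description of selected peaks. The promoter peaks of these 4 genes were not called between mTEC-I with mTEC-II and mTEC-III with mTEC-IV. Their differences were 0.07 ± 0.151 for Fos, -0.09 ± 0.129 for Birc2, -0.12 ± 0.215 for Lif and -0.14 ± 0.345 for Egfr (SE, limma adjusted p = 0.757, 0.663, 0.719 and 0.796).

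The promoters of the nearest genes, which the selection did not use, were tested in the same libraries for mTEC-I and mTEC-II together against mTEC-III and mTEC-IV together. The promoter peak of a gene was the one closest to its TSS within 1 kb; 78 of the 111 genes had one and 72 passed the filter on low values. Of these, 11 were more open in mTEC-I and mTEC-II and 1 was less open, that is 15.3% and 1.39%. Among promoter peaks of all 12052 genes tested, 4.61% were more open and 5.34% less open. The median difference was 0.02 log2 at the 72 and -0.04 at all promoters.

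The largest difference was at Pltp, a phospholipid transfer protein, whose promoter peak (chr2:164683071-164683211) had 22.98 and 14.6 (mTEC-I), 8.06 and 0 (mTEC-II), 0 and 0 (mTEC-III), with 0 and 2.12 (mTEC-IV). It differed by 2.52 ± 0.639 log2 (SE, limma adjusted p = 0.00711), and mTEC-II replicate 2 overlapped the less open populations. Its distal peak, at -4685 bp from the TSS (chr2:164687761-164688026), had 30.1 and 19.0 (mTEC-I), 25.35 and 19.97 (mTEC-II), 6.67 and 9.16 (mTEC-III), with 2.91 and 4.76 (mTEC-IV). DESeq2 did not call this promoter (adjusted p = 0.207), nor did limma without mTEC-IV replicate 1 (adjusted p = 0.0811).

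Ccnd1, which encodes cyclin D1 of the G1 phase, stood at overlapping levels in mTEC-I and mTEC-II. Its promoter peak (chr7:152125638-152125798, 5′ UTR) had 24.7 and 28.2 (mTEC-I), 25.4 and 24.6 (mTEC-II), 1.66 and 9.16 (mTEC-III), with 6.54 and 5.82 (mTEC-IV). All 4 values of mTEC-I and mTEC-II lay above the other 4, by 2.13 ± 0.399 (limma adjusted p = 0.00110). The shared peak lay at -52674 bp from the TSS (chr7:152178390-152178618), with 38.5 and 26.02, 21.9 and 20.7, 6.67 and 8.15, and 3.63 and 3.17.

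At Thbs2, the matrix protein thrombospondin 2, mTEC-I stood apart, with 34.5 and 34.2 at the promoter against 6.92 and 7.68 (mTEC-II), 4.994 and 13.2 (mTEC-III), with 6.54 and 1.05 (mTEC-IV) (1.505 ± 0.454, limma adjusted p = 0.0189). Its shared peak had 20.3 and 21.1 in mTEC-I against 18.4 and 19.97 in mTEC-II. The summed level of the mesenchyme markers was likewise highest in mTEC-I (103.9 and 88.4), and its part in the Thbs2 and Timp3 values was not tested. Timp3 had 49.5 and 44.4, 23.05 and 29.2, 21.7 and 25.5, and 16.0 and 4.24 (1.24 ± 0.311, limma adjusted p = 0.00668), with mTEC-II and mTEC-III overlapping. Ptpn14, a tyrosine phosphatase that restrains the co-activator YAP, had 97.2 and 115.5 (mTEC-I), 50.7 and 50.7 (mTEC-II), 19.99 and 26.5 (mTEC-III), with 61.7 and 54.5 (mTEC-IV) (0.98 ± 0.166, limma adjusted p = 0.000572). There mTEC-IV stood above mTEC-II, while the shared peak upstream of Ptpn14 had 1.45 and 5.29 in mTEC-IV against 19.6 and 23.8 in mTEC-II.

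Tgfbi, a matrix protein induced by TGF-beta, had 26.1 and 23.3, 26.5 and 17.7, 15.0 and 14.3, and 7.26 and 11.1 at its promoter (0.95 ± 0.284, limma adjusted p = 0.0182), without overlap between the sides. Lpar1, a receptor of lysophosphatidic acid, differed by 0.76 ± 0.235 and Sema6a by 0.64 ± 0.199 (limma adjusted p = 0.0221 and 0.0216). These promoter peaks lay only 1006 bp and 1237 bp from the selected peak of their gene. Calcrl, a receptor subunit for adrenomedullin, was next with 0.64 ± 0.201 (limma adjusted p = 0.0240), then Tmem158 with 0.50 ± 0.157 (limma adjusted p = 0.0222), both named beyond the rule; the remaining call was a predicted gene. The calls of Thbs2, Tgfbi, Lpar1 and Sema6a were each lost without mTEC-I replicate 2, without mTEC-II replicate 1 and without some of the other libraries, whereas those of Ccnd1, Timp3 and Ptpn14 remained without any 1 library and under every other alternative run. Calcrl and Tmem158 did not overlap between the sides. In all, 4 of the 72 promoters had every mTEC-I and mTEC-II library above every other library, against 2.27% of all promoters.

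By single pairs, 10 of the 11 promoters were called between mTEC-I and mTEC-IV, 5 between mTEC-I and mTEC-III, 5 between mTEC-II and mTEC-IV, and 0 between mTEC-II and mTEC-III. In that last pair limma called 0 of all 12052 promoters in either direction (862 higher and 403 lower at an unadjusted p under 0.05). Tmem158 was called in no pair. Ppp1r3b was the 1 promoter less open in mTEC-I and mTEC-II (-0.60 ± 0.206, limma adjusted p = 0.0355), with 30.5 and 24.4, 20.7 and 23.8, 28.3 and 25.5, and 45.7 and 61.9; mTEC-IV was above the rest, whereas its shared peak had 2.91 and 5.82 there. That call was lost without either library of mTEC-I or mTEC-IV and without replicate 1 of mTEC-II or mTEC-III. Leaving out any 1 library except mTEC-III replicate 2 gave fewer than the 11 higher promoters. So did DESeq2 (8) and libraries thinned to equal depth (7). In these runs the share over all promoters fell too, and it stayed below the share of the nearest-gene promoters. The authors' scaling, which moved the median of all promoters to 0.51 log2, gave 32 and 0. Under that scaling 44.4% of these promoters were called higher against 35.2% of all promoters, a smaller excess than 15.3% against 4.61%.

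**Figure D3:**
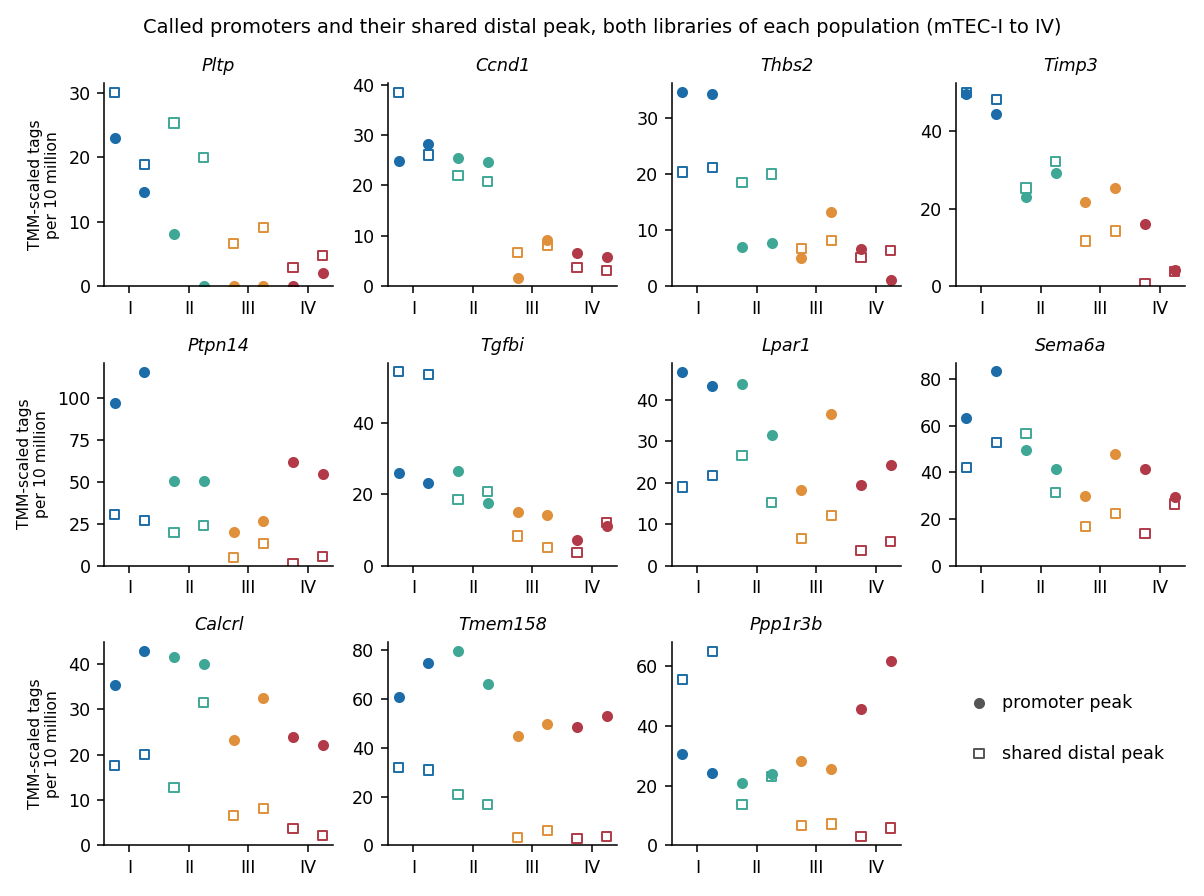
Levels in TMM-scaled tags per 10000000 (y axis, from 0) in both libraries of mTEC-I to mTEC-IV at the promoter peak (filled circles) and the strongest shared distal peak (open squares) of 11 genes whose promoter was called, leaving out 1 predicted gene. Ccnd1 falls between mTEC-II and mTEC-III at both peaks, Ptpn14 has more promoter signal in mTEC-IV than in mTEC-II where its distal peak is low, and Ppp1r3b runs in opposite directions.

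The same genes had 564 other distal peaks that were not selected, of which 436 passed the filter, and these were mixed. With limma 98 (22.5%) were more open in mTEC-I and mTEC-II and 68 (15.6%) less open, against 16.3% and 19.1% of all 30420 unselected distal peaks tested. The median difference was 0.28 log2 against -0.03. Since 22 of the 564 lay within 1 kb of a selected peak, the count was repeated without them, which gave 85 and 67 of 415. Without replicate 1 or 2 of mTEC-I the 98 became 50 in each case (13.7% and 13.6%, against 7.07% and 7.40% of the unselected distal peaks). Without replicate 1 or 2 of mTEC-IV the 68 became 25 or 32 (6.46% and 7.96%, against 6.25% and 7.41%), and the lower share of less open peaks was no longer seen. With the authors' scaling, which moved the median of all peaks to 0.50 log2, they were 200 and 53 (45.9% and 12.2%, against 33.8% and 14.04%). Of 96 genes with such a peak tested, 55 had at least 1 more open, 40 had at least 1 less open and 21 had both. No such count was made over all genes, and many genes had several peaks tested, so these counts are a description only. Separation of every mTEC-I and mTEC-II library from every other library was seen at 37 of the 436 (8.49%), against 4.66% of all unselected distal peaks.

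Ptpn14 and Synpo2, an actin-binding protein, each had 5 further peaks more open. Ptpn14 also had 5 that were less open, among them the largest fall of the set, at chr1:191588202-191588424 in an intron, with 0.887 and 0 (mTEC-I), 0 and 0 (mTEC-II), 13.3 and 9.16 (mTEC-III), with 53.7 and 44.96 (mTEC-IV). Only 2 read ends were seen in mTEC-I and mTEC-II, a ratio of 114 for mTEC-III and mTEC-IV over them with a 95% counting interval of 31.1 to 948 (limma difference -4.39 ± 0.459). The other large falls were at peaks of Ppp1r3b (-3.24), a second of Ptpn14 (-2.94), Clic5, an intracellular chloride channel (-2.88), and Kcnq3 (-2.85), with counting ratios of 31.1, 15.4, 30.4 and 48.7. At Atxn7l1 no read end was seen in mTEC-I or mTEC-II and the peak was at least 3.64-fold lower there. At all of these mTEC-IV was the most open population.

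Among genes that are neither predicted nor microRNAs, the largest rises were at peaks of Casp8 (2.74 ± 0.452), Efcab1 (2.68 ± 0.459), Parvb (2.68 ± 0.686), Plekhg1 (2.60 ± 0.406), Snx30, a sorting nexin (2.57 ± 0.440), and Synpo2 (2.52 ± 0.513). The Casp8 peak lay 3420 bp from the selected one and had 21.2 and 17.9 (mTEC-I), 16.1 and 17.7 (mTEC-II), 10.0 and 3.05 (mTEC-III), with 0 and 0.527 (mTEC-IV), without overlap between the sides. The Parvb peak began 36 bp from the selected one. It differed from it in mTEC-II, with 8.06 and 4.61 against 36.2 and 37.4 in mTEC-I. At Efcab1, too, mTEC-I stood above the rest, with 20.3 and 24.9 against 2.30 and 2.30 in mTEC-II; 3 read ends lay in mTEC-III and mTEC-IV, and the counting ratio was 24.98 (8.30 to 123).

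**Figure D4:**
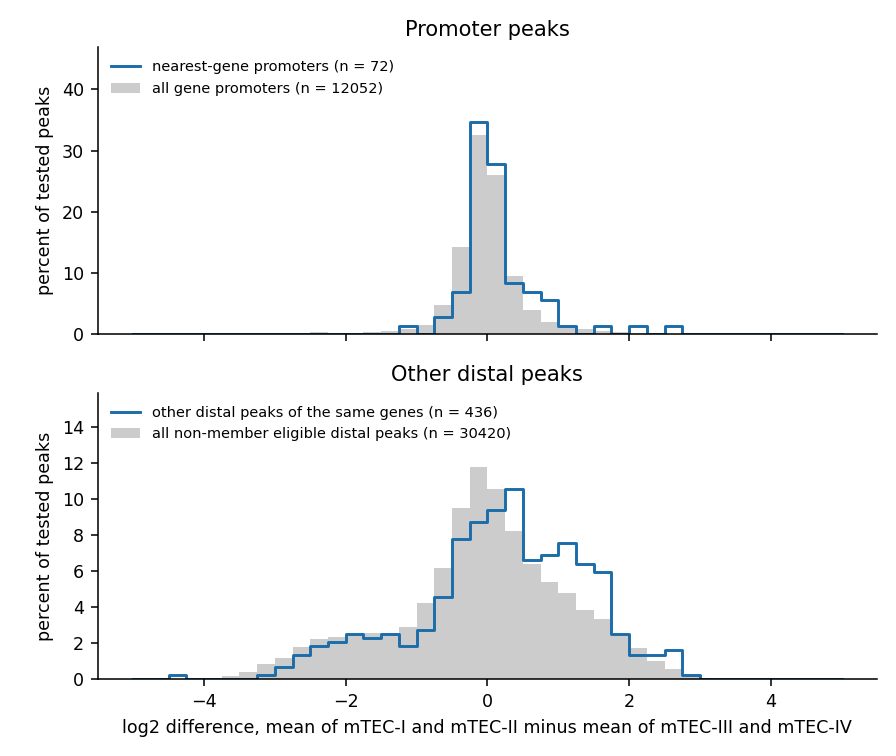
Distribution of log2 differences, mean of mTEC-I and mTEC-II minus mean of mTEC-III and mTEC-IV (x axis), as a percentage of tested peaks (y axis), for the nearest genes (line) and for all genes (grey). The 72 nearest-gene promoters centre near 0.02 with a tail to the right, and the 436 other distal peaks have more mass between 0.5 and 2 than the 30420 in grey, with a median of 0.28.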

How the data were processed

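The submitters' processing notes name bcl2fastq 2.15.0.4, Picard 1.108, HOMER and mm9. Tools for alignment, duplicate removal and shifting of read ends were not given in the sources used here. HOMER peak calls were made by the authors library by library, per the file headers, and merged into 74090 peaks. The deposited table gives a signal, in tags per 10000000 total tags, for each peak and library, with the nearest TSS. Of these values 100% were whole multiples of 0.5 tags, within 0.02 read ends, so read ends were recovered; total tags ran from 3606440 to 10374600.

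Peaks with at least 10 tags in at least 2 libraries after TMM scaling (edgeR 4.0.16) were kept, 58817 in all. limma 3.58.1 in R 4.3.3 fitted log2(value + 1) in all 8 libraries with 1 coefficient per population, and Benjamini-Hochberg adjusted p-values over all peaks with a threshold of 0.05. Fold changes on this scale understate changes of low values. The fit was tested on simulated data. edgeR and DESeq2 1.42.0 on recovered read ends were alternatives.

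The shared peaks, gene lists, motifs and markers were chosen with earlier results of these data known. Named peaks were the 12 most open, those of list genes, up to 4 called per direction in each pair, 3 on each side of each threshold, 8 promoters and 6 other distal peaks per direction, leaving out predicted genes and microRNAs. The main fit did not pair libraries by replicate number. Deviations from population means correlated between -0.014 and 0.033 across populations, which cannot show how the libraries were prepared.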

Additional observations from a re-analysis of the deposited data

How the results depend on the processing

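The number of shared peaks, 113, was 701 with the authors' scaling (median of all peaks 0.14 for mTEC-I minus II and -0.64 for III minus IV, against -0.06 and -0.07), 340 or 18 with mTEC-III and mTEC-IV limited to the lower mean divided by 1.5 or 3, 250 or 26 with a minimum of 8 or 20, and 107 to 188 without 1 library (182 without mTEC-II replicate 1, 188 without mTEC-III replicate 2). Shared peaks higher in mTEC-I numbered 5, or 9 with the authors' scaling, 10 with log2(value + 5), 17 with edgeR, 10 with DESeq2, 1 with libraries thinned to equal depth and 0 to 9 without 1 library; those higher in mTEC-II numbered 0 throughout. Those higher in mTEC-III numbered 15 to 38 without 1 library, and those higher in mTEC-IV 2 with the authors' scaling and 0 to 4 without 1 library. Higher promoters numbered 32 with the authors' scaling, 7 when thinned and 3 to 13 without 1 library (5 without mTEC-I replicate 1, mTEC-IV replicate 1; 6 without mTEC-IV replicate 2). The 1 lower promoter became 0 with the authors' scaling, DESeq2, thinning or peaks within 500 bp, 2 with log2(value + 5), and 0 to 2 without 1 library. Other distal peaks numbered 200 higher with the authors' scaling, 60 higher and 43 lower when thinned, 16 higher and 12 lower within 10 kb, where fewer peaks were tested (86), and 50 to 103 higher and 25 to 67 lower without 1 library. Promoters of list genes, none called in the report, changed sign: Fos to -0.11 when thinned; Birc2 to 0.47, Lif to 0.42 and Egfr to 0.37 with the authors' scaling; without 1 library, Lif ranged from -0.26 to 0.017 (above 0 without mTEC-III replicate 1) and Egfr from -0.41 to 0.14 (above 0 without mTEC-II replicate 1, or mTEC-III replicate 2). Other causes were not tested. With the replicate block, counts were 7 and 0 for mTEC-I against mTEC-II, 38 and 0 for mTEC-III against mTEC-IV, 11 and 1 for promoters and 99 and 68 for other distal peaks. Over 21 single values and their alternatives, 279 kept their side of the threshold, 47 lost the call, 1 gained it (Fos, 0.63 with the authors' scaling) and 7 changed sign.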

Other observations

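Where a shared peak lay inside the transcript of another gene than the nearest, the promoter of that host gene was also tested, a choice made after the positions were seen. With host genes in place, 12 of 79 promoters (15.2%) were more open in mTEC-I and mTEC-II and 1 (1.27%) was less open. Among promoter peaks of all genes it was 4.61% and 5.34%. The 79 include promoters already counted among the 72. Among the added promoters, Tpm2, a tropomyosin whose end holds the shared peak nearest Car9, had 83.1 and 73.7 (mTEC-I), 19.6 and 29.2 (mTEC-II), 13.3 and 18.3 (mTEC-III), with 4.36 and 4.76 (mTEC-IV) (2.21 ± 0.257, SE, limma adjusted p = 9.16e-05). Every mTEC-I and mTEC-II library lay above the others, with mTEC-I the highest. Between mTEC-II and mTEC-III this promoter was not called (0.58, limma adjusted p = 0.497). The part of mesenchymal cells in these values was not tested. Ccnd2, which encodes cyclin D2 and holds in an intron the fourth most open shared peak (chr6:127097797-127097987), had 25.2 and 24.9, 27.7 and 24.6, 16.7 and 17.3, and 8.71 and 17.4 at its promoter (0.78 ± 0.269, limma adjusted p = 0.0376). Its shared peak stood at 50.4 and 56.4 (mTEC-I), 46.1 and 55.3 (mTEC-II), 18.3 and 28.5 (mTEC-III), with 16.0 and 31.2 (mTEC-IV). Prdm11, Samm50 and Ubr4, other hosts, had promoter differences of -0.56, -0.22 and -0.23 that were not called (limma adjusted p = 0.424, 0.439 and 0.242).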
